A study of Mus musculus with 24 samples.

Results

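The 10 genes described here, Hdac1 to Hdac10, encode the zinc-dependent histone deacetylases of class I and class II. They were chosen by name, from the gene column of the array's annotation and the older symbols of each gene, and were read by 17 of the 41174 probes on the array, for 10 of the 18428 protein-coding genes it names. The cells were immortalized mouse embryonic fibroblasts (MEFs) of the genotype Ku70-/-, lacking the Ku70 gene (Xrcc6), whose product binds broken DNA ends for nonhomologous end joining. Every group, controls included, carried this deletion, so a response that depends on it could not be separated from a general response to the agents. Potassium bromate (KBrO3) is an oxidizing agent that damages DNA bases, and bisphenol A (BPA) is a monomer of polycarbonate plastics with estrogenic activity. In the first set of 15 arrays, untreated cells labelled 4 hr were compared with cells given 20 mM KBrO3 for 1 hr and left to repair for 3 or 23 hr, and with co-exposed cells that received 150 µM BPA for 1 hr, BPA together with KBrO3 for 1 hr, and BPA again for 3 or 23 hr. In the second set of 9 arrays, untreated cells without a time label were compared with cells kept in 150 µM BPA for 4 or 24 hr by the labels, while the study's methods make each of these exposures 1 hr longer. Each group held 3 arrays, described in the study's methods as biological replicates of the same line. The first set had no untreated group at 24 hr, so at that time the treatment and the time in culture could not be told apart.

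Histone deacetylases remove acetyl groups from lysines, and on histone tails this generally accompanies more compact chromatin and less transcription. Class I enzymes (Hdac1, Hdac2, Hdac3 and Hdac8) are mostly nuclear. Hdac1 and Hdac2 are the catalytic subunits of the Sin3, NuRD and CoREST complexes, Hdac3 works within a nuclear corepressor complex of its own, and Hdac8 deacetylates the cohesin subunit Smc3. Class IIa enzymes (Hdac4, Hdac5, Hdac7 and Hdac9) have little catalytic activity of their own, bind MEF2 transcription factors in the nucleus, and are held in the cytoplasm by 14-3-3 proteins after phosphorylation by CaMK, PKD and SIK kinases. Class IIb holds Hdac6, a cytoplasmic enzyme of tubulin and cortactin that also binds ubiquitin, and Hdac10, which deacetylates polyamines. The question put to the arrays was how the mRNAs of these enzymes stood after an oxidizing exposure, and whether BPA given around that exposure altered the response.

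RNA was labelled with Cy3 and hybridized to 1-colour Agilent arrays, and a level below is the log2 processed signal of a probe minus the 75th percentile of its array, so that 1 unit is a doubling. Levels of different probes are not on a common scale and are not set against each other. The probe of a gene that was brightest on average over the 24 arrays stood for the gene, and it was called changed where limma's moderated test gave an adjusted p below 0.05 (Benjamini-Hochberg over all probes tested). Between 57.7% and 68.1% of probes were well above background on the first set's arrays and between 76.4% and 79.4% on the second set's. A probe's residual SD had a median of 0.11 among first-set arrays and 0.32 among second-set arrays, so smaller changes could be called in the first. Of the fibroblast markers, 9 of 10 were well above background on all 24 arrays, and the leukocyte marker Ptprc and the endothelial marker Pecam1 were so on 0 arrays. The summed signal of the 10 fibroblast markers lay between 10.41 and 10.51 on control arrays, 10.27 and 10.34 at 4 hr after KBrO3, 10.05 and 10.09 at 4 hr of co-exposure, 8.96 and 9.09 at 24 hr after KBrO3, and 8.58 and 8.76 at 24 hr of co-exposure. Of these markers 5 were called lower and 1 higher at 4 hr after KBrO3, 9 lower and 1 higher at 4 hr of co-exposure, and all 10 lower at 24 hr in KBrO3-treated and in co-exposed cells, and the part of this fall in the histone deacetylase results was not tested. The summed signal of the 5 leukocyte markers went from between -2.05 and -1.74 on control arrays to between -0.44 and -0.31 at 4 hr after KBrO3 and between -0.79 and -0.77 at 4 hr of co-exposure, with 2 of the 3 tested called higher in both, and its part was not tested either. Of the epithelium, endothelium and muscle markers tested, 2 of 2, 1 of 1 and 0 of 3 were called higher at 4 hr after KBrO3, and 1 of 2, 1 of 1 and 3 of 3 at 4 hr of co-exposure. The summed muscle signal went from between -4.35 and -4.06 on control arrays to between -2.71 and -2.60 in the latter, and the part of these markers in the results was not tested. The probe for Xrcc6 was well above background on all 24 arrays, with a mean level of 0.10 in the first set's controls, and since its place relative to the deletion is not given in the sources used here it does not check the genotype. In RNA from whole cultures, fewer cells of a type and less RNA per cell cannot be told apart.

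Of the 17 probes, 14 entered the tests of the first set and 16 those of the second, and each of the 10 genes had a tested probe in both sets. Hdac7, Hdac8, Hdac9 and Hdac10 were read by more than 1 tested probe of the first set, and for Hdac7, Hdac8 and Hdac9 at least 1 call depended on the probe. The Hdac8 probes are shown for that reason. For Hdac9, probes from different parts of the gene are shown, without A_52_P411780, which stood for the gene. Positions are those that the array's annotation gives on the mm7 build, and sequences are in lower case throughout. Both Hdac8 probes are on the minus strand of the X chromosome, the first at chrX:97832340-97832399 and the second aligned across a longer stretch, at chrX:97635086-97729989.
Hdac8 A_51_P481191: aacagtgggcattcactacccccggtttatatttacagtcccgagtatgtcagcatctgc
Hdac8 A_52_P464062: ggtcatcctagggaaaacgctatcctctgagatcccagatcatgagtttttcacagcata
The Hdac9 probes fall into an upstream and a downstream pair on the minus strand of chromosome 12, far apart within the gene. From the upstream pair, A_51_P204031 is placed at chr12:32232465-32232524, and from the downstream pair, A_52_P76792 is placed at chr12:31891246-31891277, a span shorter than the probe. The downstream pair lies toward the end of the gene that encodes the catalytic domain, and Hdac9 is known to make a short form without that domain.
Hdac9 A_51_P204031: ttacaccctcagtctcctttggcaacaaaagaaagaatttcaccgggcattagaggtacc
Hdac9 A_52_P76792: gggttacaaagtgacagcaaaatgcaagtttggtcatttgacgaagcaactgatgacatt
Hdac1 has a processed pseudogene and near-identical copies can share signal on an array, so its value may include other transcripts.

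At 4 hr after KBrO3 most of these genes stood below control. Against the untreated cells, 8 of the 10 genes were lower, 1 (Hdac1) was higher and 1 (Hdac6) was not called, where 72.6% of all 14097 genes tested were called, 38.1% lower and 34.5% higher. The median log2 fold change of the 10 was -0.44, beside 0.02 over all genes tested. At 24 hr after KBrO3, 7 were lower, 1 (Hdac6) was higher and 2 (Hdac3 and Hdac10) were not called, with 69.4% of all genes called, 38.1% lower and 31.3% higher, and the median was -0.34 against -0.07 for all genes. Co-exposed cells had 8 lower and 1 (Hdac4) higher at 4 hr, where 80.4% of all genes were called, 40.7% lower and 39.7% higher. At 24 hr of co-exposure 6 were lower and 2 (Hdac6 and Hdac8) higher, where 72.5% of all genes were called, 38% lower and 34.5% higher. The side on which Hdac4 is counted in both co-exposure counts depended on the scaling of the arrays, and with each array scaled to its median the 10 genes at 24 hr of co-exposure were 5 higher and 5 lower, with a median of -0.08. Their medians were -0.64 at 4 hr and -0.40 at 24 hr, and the KBrO3 and co-exposure comparisons used the same 3 control arrays. Under the stricter rule of the study's methods (Bonferroni p below 0.01 and a fold beyond 1.5), Hdac7, Hdac9 and Hdac10 passed at 4 hr after KBrO3 (31.2% of all genes did), Hdac5 alone at 24 hr (20% of all genes), Hdac5, Hdac7, Hdac9 and Hdac10 at 4 hr of co-exposure (35.9%), and Hdac1, Hdac5, Hdac6, Hdac7 and Hdac9 at 24 hr of co-exposure (23.7%). Scaling each array to its median in place of its 75th percentile moved the median of all genes by 0.32 at 24 hr of co-exposure and by 0.15 at 24 hr after KBrO3, and the share of called genes that were higher went from 47.6% to 68.0% and from 45.1% to 57.2%.

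**Figure D1:**
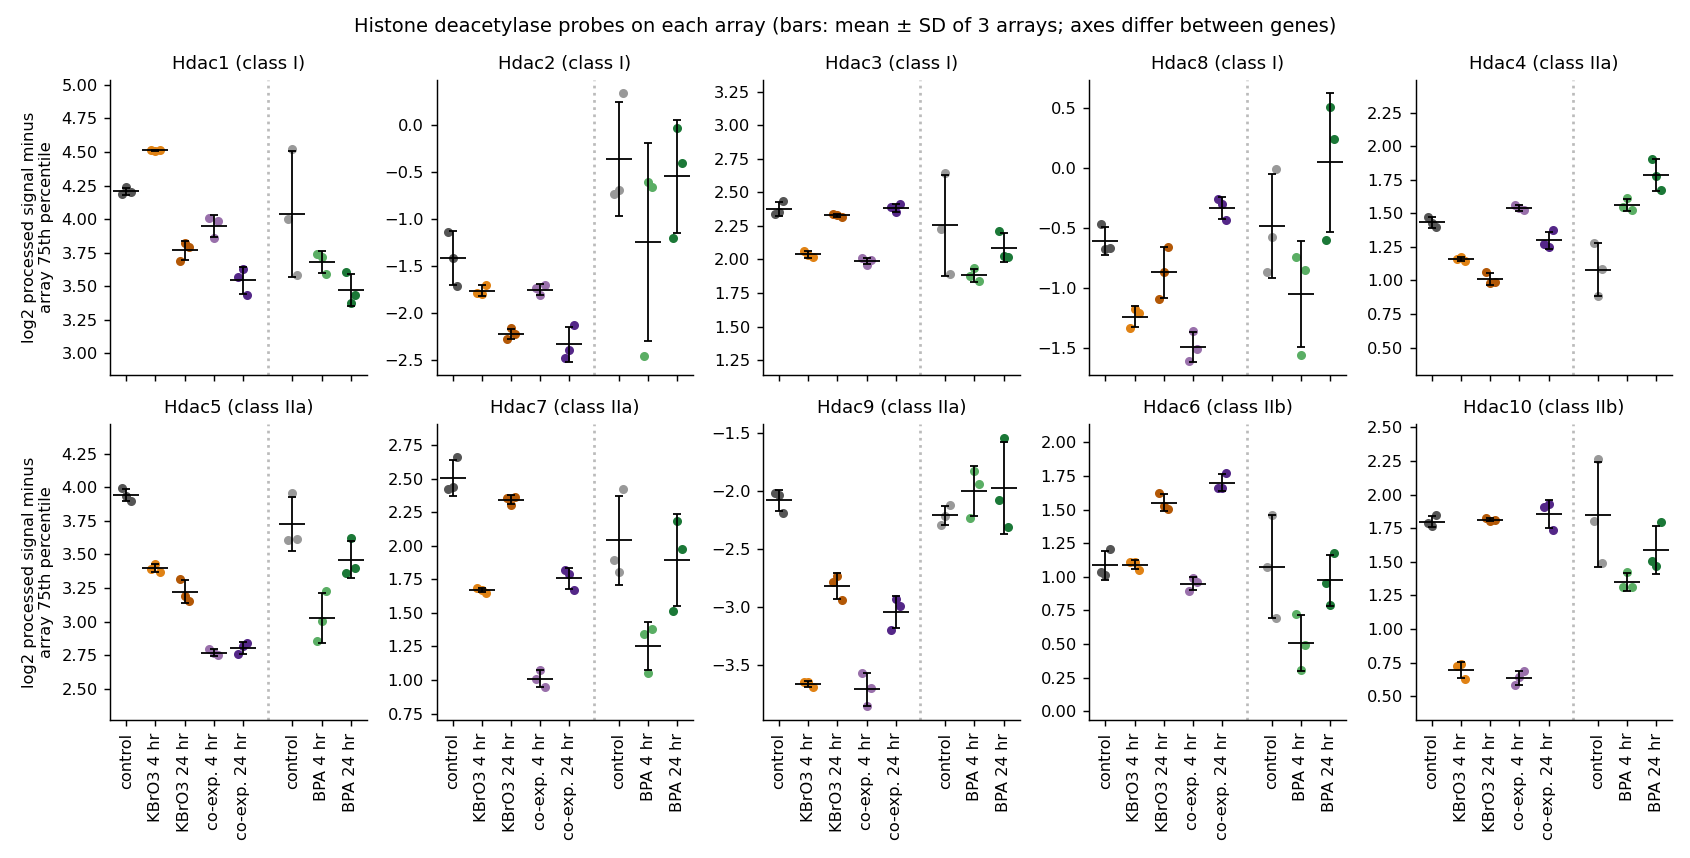
Level of each histone deacetylase gene (log2 processed signal minus the array's 75th percentile, representative probe) on every array, with the mean ± SD of 3 arrays; the dotted line parts the first set from the second. Hdac10 dropped to between 0.63 and 0.74 at 4 hr after KBrO3 and stood between 1.80 and 1.83 at 24 hr, and Hdac5 stood below its controls in every treated group of the first set.

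**Figure D2:**
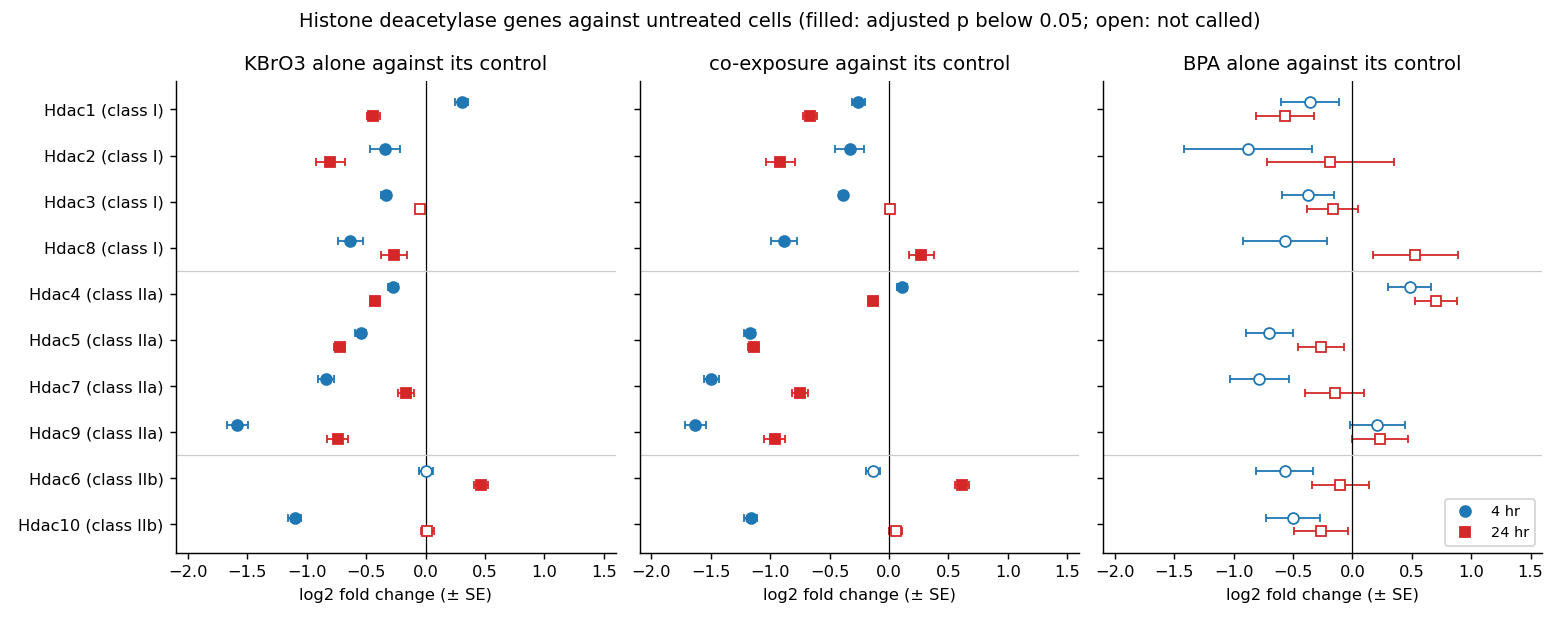
Log2 fold change ± SE of each gene against the untreated arrays of its own set, at 4 hr (circles) and 24 hr (squares), ordered by class; filled symbols were called at an adjusted p below 0.05. The 4 class IIa genes were all on the lower side after KBrO3, and no symbol in the BPA panel is filled.

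Of the class I genes, 1 was higher and 3 were lower at 4 hr after KBrO3, with a median log2 fold change of -0.34. Hdac1, a catalytic subunit of the large nuclear corepressor complexes, had levels of 4.19, 4.24 and 4.20 in untreated cells and 4.51, 4.51 and 4.52 at 4 hr after KBrO3. The groups did not overlap, and the rise of 0.30 (SE 0.06, adjusted p = 0.000391) was the only one among the 10 genes at that time, although it was 0.06 with quantile normalization (adjusted p = 0.23). By 24 hr the levels were 3.69, 3.82 and 3.79, below all controls, a fall to 73.7% of control (log2 fold change -0.44, SE 0.06, adjusted p = 2.38e-05). Co-exposed cells showed no rise at 4 hr: their Hdac1 levels were 4.00, 3.86 and 3.99, 83.6% of control, and 3.57, 3.63 and 3.44 at 24 hr, 63.1% of control (log2 fold change -0.66, SE 0.06, adjusted p = 4.96e-07).

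Hdac2, the close relative of Hdac1 in the same complexes, was lower at 24 hr than in untreated cells. Its control levels were -1.13, -1.41 and -1.71, the widest spread of any member in that group. After KBrO3 they were -1.79, -1.79 and -1.70 at 4 hr, overlapping the controls, and -2.27, -2.16 and -2.22 at 24 hr, below all of them. The change at 24 hr was -0.80 (SE 0.12, adjusted p = 0.000105), and -0.91 in co-exposed cells (adjusted p = 3.03e-05). The changes at 4 hr were called at -0.34 after KBrO3 and -0.33 with co-exposure, and these calls ended without control replicate 1 (-0.20 and -0.19, adjusted p = 0.12 and 0.13) and with the slide as a random block (adjusted p = 0.29 and 0.32). They also ended without control replicate 2 (adjusted p = 0.058 and 0.060) and with only the 6 arrays compared (adjusted p = 0.082 and 0.082). Among all alternatives, the KBrO3 call was lost in 10 of 30 and the co-exposure call in 8 of 29. A second Hdac2 probe was well above background on 0 arrays of the first set.

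Hdac3, the catalytic subunit of that separate corepressor complex, was lower at 4 hr and back within reach of control at 24 hr. It had levels of 2.34, 2.35 and 2.43 in untreated cells, 2.07, 2.03 and 2.02 at 4 hr after KBrO3, and 2.01, 1.96 and 1.99 at 4 hr of co-exposure. Neither treated group reached the controls, and the changes were -0.34 (SE 0.04, adjusted p = 2.98e-06) and -0.39 (SE 0.04, adjusted p = 7.09e-07). At 24 hr the change was -0.05 after KBrO3 (95% interval -0.13 to 0.03) and 0.01 with co-exposure (-0.07 to 0.09), and neither was called, although scaling to array medians made the latter 0.33 (adjusted p = 0.00117).

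Hdac8, the cohesin deacetylase, fell at 4 hr by both of its probes. With A_52_P464062 the levels were -0.47, -0.68 and -0.67 in untreated cells, -1.34, -1.17 and -1.21 at 4 hr after KBrO3, and -1.61, -1.36 and -1.51 at 4 hr of co-exposure, with no overlap. That is 64.5% of control after KBrO3 and 54.2% with co-exposure (log2 fold changes -0.63 and -0.88, SE 0.11, adjusted p = 0.000158 and 7.51e-06). The probe A_51_P481191 gave 51.2% and 64.5%, the opposite order of the treatments. At 24 hr A_52_P464062 was called at -0.27 after KBrO3 and 0.27 with co-exposure. Both calls were lost with the slide as a random block (adjusted p = 0.12 and 0.27). They were also lost without control replicate 2 (-0.30 and 0.24, adjusted p = 0.051 and 0.11) or 3 (-0.30 and 0.24, adjusted p = 0.054 and 0.10). The KBrO3 call also ended without KBrO3 24 hr replicate 1 (-0.16, adjusted p = 0.18), and its arrays overlapped the controls. By its other probe Hdac8 was called at -0.37 after KBrO3 (adjusted p = 0.0013) and not with co-exposure (0.07, adjusted p = 0.46).

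The class IIa genes were all called lower at 4 hr and at 24 hr after KBrO3, with medians of -0.69 and -0.57 beside 0.02 and -0.07 over all genes, of which 38.1% were lower at each time, and with median scaling all 4 at 4 hr and 3 at 24 hr. Hdac5 stood at 3.99, 3.93 and 3.90 in untreated cells, 3.39, 3.43 and 3.37 at 4 hr after KBrO3, and 3.32, 3.19 and 3.15 at 24 hr. No treated array reached a control, and the gene was at 68.5% of control at 4 hr (log2 fold change -0.55, SE 0.05, adjusted p = 3.97e-07) and 60.6% at 24 hr (-0.72, SE 0.05, adjusted p = 5.54e-08). In co-exposed cells its levels were 2.80, 2.76 and 2.75 at 4 hr and 2.76, 2.82 and 2.84 at 24 hr, below every KBrO3 array. These were 44.4% and 45.4% of control (log2 fold changes -1.17 and -1.14, SE 0.05, adjusted p = 2.48e-10 and 6.25e-10).

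Hdac7, a class IIa enzyme best known from endothelium and thymocytes, fell at 4 hr and rose again by 24 hr. Its levels were 2.42, 2.44 and 2.66 in untreated cells, 1.68, 1.67 and 1.65 at 4 hr after KBrO3, and 1.00, 1.08 and 0.95 at 4 hr of co-exposure. The 3 groups lay apart, at 55.9% of control after KBrO3 (log2 fold change -0.84, SE 0.06, adjusted p = 1.23e-07) and 35.4% with co-exposure (-1.50, SE 0.06, adjusted p = 4.44e-10). A second probe gave -0.63 and -1.63 for the same comparisons. At 24 hr the levels were 2.35, 2.30 and 2.37 after KBrO3, within 0.17 of control on average, and 1.82, 1.79 and 1.67 with co-exposure, 59.5% of control (adjusted p = 4.97e-07). The small difference at 24 hr after KBrO3 was called (adjusted p = 0.0388) but not without control replicate 3 (-0.09, adjusted p = 0.17), without any 1 of the KBrO3 24 hr arrays (adjusted p from 0.059 to 0.11), or with arrays scaled to their medians (-0.02, adjusted p = 0.88), and it turned to 0.10 with normexp background correction (adjusted p = 0.58).

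Hdac9, whose short form without a catalytic domain also binds MEF2 factors, had the largest fall of the 10 genes at 4 hr. The upstream probe A_52_P411780 read -2.02, -2.04 and -2.19 in untreated cells, -3.65, -3.65 and -3.69 at 4 hr after KBrO3, and -3.57, -3.86 and -3.70 at 4 hr of co-exposure. Both treated groups were clear of the controls and overlapped each other, at 33.3% and 32.3% of control (log2 fold changes -1.59 and -1.63, SE 0.09, adjusted p = 5.66e-09 and 3.62e-09). At 24 hr the changes were -0.74 after KBrO3 and -0.96 with co-exposure (adjusted p = 1.15e-05 and 8.96e-07). The other upstream probe, A_51_P204031, moved less: it was at 70.1% of control at 4 hr after KBrO3 and 61.9% with co-exposure (adjusted p = 0.0178 and 0.00284), and at 24 hr its changes were -0.03 (95% interval -0.40 to 0.35) and -0.13 (-0.50 to 0.25), neither called. The difference between the probes was not tested. In the downstream pair, A_52_P76792 was well above background on 0 of the 15 arrays of the first set and 1 of 9 in the second, and A_51_P255467 was so on 7 of 15 and 6 of 9, without being so on all arrays of any group of the first set. The signal of Hdac9 that could be tested in the first set thus came from the upstream pair.

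**Figure D3:**
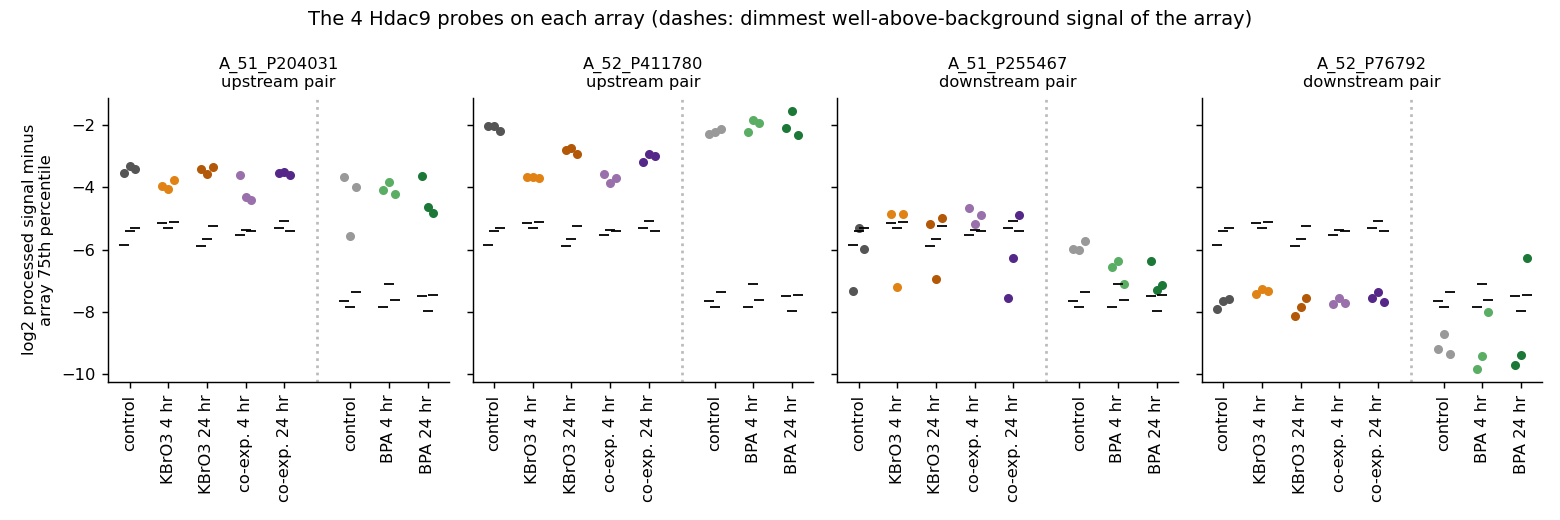
Level of the 4 Hdac9 probes on every array (points) beside the dimmest signal that was well above background on the same array (dashes), in log2 processed signal minus the array's 75th percentile. The upstream pair lies above the dashes throughout and dips at 4 hr in KBrO3-treated and co-exposed cells, while A_52_P76792 lies below the dashes on all 15 arrays of the first set.

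Hdac4, a class IIa enzyme that represses MEF2 targets in muscle, bone and neurons, was lower after KBrO3. It had levels of 1.47, 1.43 and 1.40 in untreated cells, 1.16, 1.18 and 1.14 at 4 hr, and 1.06, 0.98 and 0.99 at 24 hr, with no overlap (82.8% and 74.6% of control, log2 fold changes -0.27 and -0.42, SE 0.04, adjusted p = 7.14e-05 and 2.13e-06). Co-exposed cells were close to control, at 1.56, 1.54 and 1.52 at 4 hr and 1.27, 1.25 and 1.37 at 24 hr. Their changes were called at 0.11 and -0.14, but each took the other sign when arrays were scaled to their medians (-0.04 and 0.18), so no direction is given for Hdac4 in co-exposed against untreated cells.

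The class IIb genes were at or above control at 24 hr. Hdac10, the polyamine deacetylase, stood at 1.79, 1.76 and 1.84 in untreated cells, 0.72, 0.74 and 0.63 at 4 hr after KBrO3, and 0.58, 0.64 and 0.69 at 4 hr of co-exposure. The treated arrays were all more than 1 unit below the controls, at 46.6% and 44.7% (log2 fold changes -1.10 and -1.16, SE 0.05, adjusted p = 1.96e-09 and 9.92e-10), and a second probe gave 50.7% and 46.4%. At 24 hr the levels were 1.83, 1.80 and 1.81 after KBrO3 and 1.90, 1.93 and 1.73 with co-exposure, on the controls again, with changes of 0.01 (95% interval -0.10 to 0.13) and 0.06 (-0.06 to 0.18); scaled to array medians the latter was called, at 0.38 (adjusted p = 0.00216). Between 4 and 24 hr Hdac10 rose to 217% after KBrO3 and 233% with co-exposure (log2 fold changes 1.12 and 1.22, adjusted p = 2.1e-09 and 7.74e-10). In neither case did the 4 hr and 24 hr arrays share a slide.

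Hdac6, the tubulin deacetylase, was the 1 gene called higher at 24 hr after KBrO3. Its levels were 1.03, 1.01 and 1.21 in untreated cells and 1.11, 1.11 and 1.05 at 4 hr after KBrO3, overlapping, and 1.62, 1.52 and 1.51 at 24 hr, above all controls. The rise at 24 hr was 0.47 (SE 0.06, adjusted p = 1.94e-05), to 138% of control. With co-exposure the levels were 0.89, 0.99 and 0.96 at 4 hr (-0.14, adjusted p = 0.0508, not called, although called lower with quantile normalization at -0.20, median scaling at -0.28 and the slide as a random block at -0.19, adjusted p = 0.012, 0.0025 and 0.048) and 1.66, 1.66 and 1.78 at 24 hr, or 153% of control (0.62, SE 0.06, adjusted p = 1.38e-06).

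Between 4 and 24 hr after KBrO3 all 10 genes were called, 6 higher and 4 lower, where 77.7% of all genes were called, 34% higher and 43.8% lower. The KBrO3 24 hr arrays shared no slide with the KBrO3 4 hr arrays. Time and slide thus cannot be told apart there except through a random block, under which 9 genes were called, 5 higher and 4 lower. In co-exposed cells 6 were higher and 3 lower, with 84.5% of all genes called, 37.1% higher and 47.4% lower. Hdac5 was not called there (0.03, 95% interval -0.07 to 0.14). It was called higher with median scaling (0.49, adjusted p = 1.8e-05) and with quantile normalization (0.18, adjusted p = 0.011). The same 6 genes were higher in both series, namely Hdac3, Hdac6, Hdac7, Hdac8, Hdac9 and Hdac10, although Hdac8 after KBrO3 was not called with the slide as a random block (0.29, adjusted p = 0.14). The 4 that were lower after KBrO3 were Hdac1 (-0.74), Hdac2 (-0.46), Hdac4 (-0.15) and Hdac5 (-0.18). Of these, the Hdac5 value turned to 0.12 with quantile normalization, and with median scaling the lower calls of Hdac2 (-0.31, adjusted p = 0.078), Hdac4 (-0.0011) and Hdac5 (-0.027) after KBrO3 were lost, leaving 6 higher and 1 lower. In co-exposed cells the lower values of Hdac1 (-0.41) and Hdac4 (-0.24) turned to 0.05 and 0.22 when arrays were scaled to their medians, a scaling that moved the median of all genes by 0.46 in that comparison and the share of called genes that were higher from 43.9% to 63.9% and left 8 of the 10 called, all higher. By the Bonferroni rule Hdac1, Hdac7 and Hdac10 differed between the times after KBrO3 (29.7% of all genes did) and Hdac6, Hdac7, Hdac8 and Hdac10 with co-exposure (34.7%).

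The change that went with BPA on top of KBrO3 was read by setting co-exposed cells against KBrO3 alone at the same time. At 4 hr, Hdac1, Hdac5 and Hdac7 were lower and Hdac4 was higher, 4 of 10 where 60.8% of all genes were called (32.7% lower, 28.1% higher). At 24 hr the same 3 genes were lower and Hdac4 and Hdac8 higher, 5 of 10 where 50.4% of all genes were called (21.9% lower, 28.5% higher). The share of members called was thus no larger than that of all genes. By the Bonferroni rule only Hdac5 passed at 4 hr (5.99% of all genes did) and 0 genes at 24 hr (7.43%). The change from 4 to 24 hr in this contrast was itself called for Hdac1, Hdac5, Hdac6 and Hdac8, all toward higher values, where 57.4% of all genes were called (31.4% higher, 26% lower); by the Bonferroni rule 0 of the 10 were (4.91% of all genes). Hdac5 was at 64.7% of its KBrO3 level at 4 hr and 74.9% at 24 hr (log2 fold changes -0.63 and -0.42, SE 0.05, adjusted p = 8.55e-07 and 1.87e-05). Hdac7 was at 63.3% and 66.7% (log2 fold changes -0.66 and -0.58, SE 0.06, adjusted p = 5.92e-06 and 1.44e-05). Its other probe gave 50.1% and 71.8%. Hdac1 was at 67.7% and 85.6% (log2 fold changes -0.56 and -0.22, SE 0.06, adjusted p = 7.87e-06 and 0.00654), and at 24 hr it was -0.06 when arrays were scaled to their medians (adjusted p = 0.69). Hdac4 moved the other way, to 130% and 122% of KBrO3 alone (log2 fold changes 0.38 and 0.29, SE 0.04, adjusted p = 1.43e-05 and 0.000132), with every co-exposed array above every KBrO3 array at both times. Hdac8 was higher at 24 hr by both probes, at 145% and 135%, whereas at 4 hr its probes disagreed in sign (-0.25, adjusted p = 0.0602, and 0.33, adjusted p = 0.00344). Median scaling moved all genes by -0.14 at 4 hr and 0.17 at 24 hr in these comparisons, taking the higher share of called genes from 46.2% to 29.3% and from 56.5% to 78.3%, and it left Hdac5 and Hdac7 lower and Hdac4 higher at both times.

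**Figure D4:**
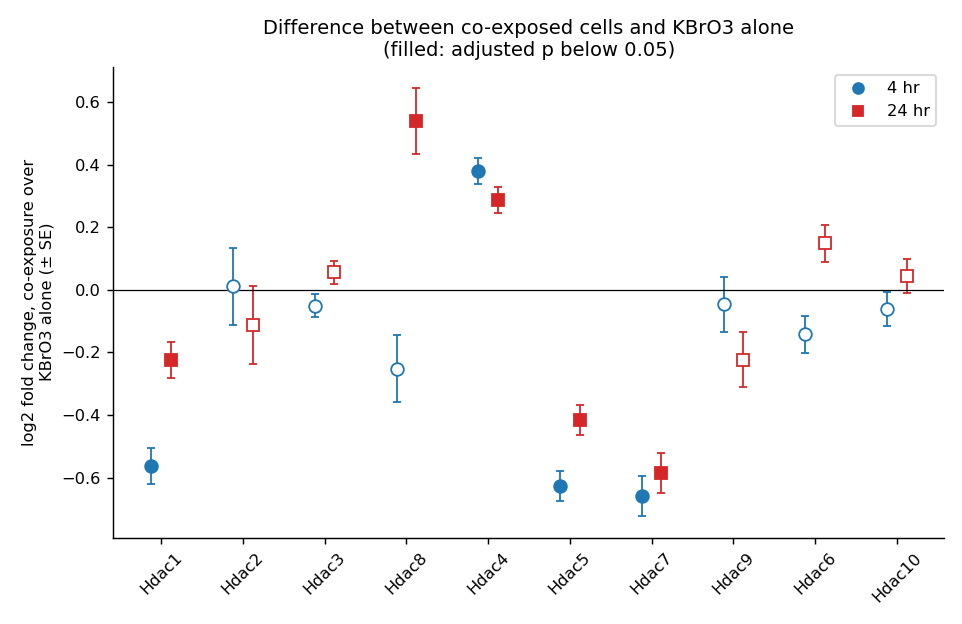
Log2 fold change ± SE of co-exposed cells over KBrO3 alone at 4 hr (circles) and 24 hr (squares) for each gene, with filled symbols called at an adjusted p below 0.05. Hdac1, Hdac5 and Hdac7 lie below 0 and Hdac4 above 0 at both times, and Hdac8 changes side.

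The class IIa genes Hdac4 and Hdac5 thus moved in opposite directions when BPA was added to KBrO3, and their promoters are shown for that reason. Each run below is the 250 bases before the RefSeq start on GRCm38.p6, minus strand, at chr1:92180342-92180591 for Hdac4 and chr11:102230173-102230422 for Hdac5. Capitals mark GC boxes (GGGCGG) and CCAAT boxes (CCAAT) on either strand.
Hdac4: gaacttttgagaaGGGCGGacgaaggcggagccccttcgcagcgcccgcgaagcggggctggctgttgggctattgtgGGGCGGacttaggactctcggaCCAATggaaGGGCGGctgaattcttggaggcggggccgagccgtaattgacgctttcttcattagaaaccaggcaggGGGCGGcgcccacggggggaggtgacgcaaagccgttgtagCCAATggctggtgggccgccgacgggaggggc
Hdac5: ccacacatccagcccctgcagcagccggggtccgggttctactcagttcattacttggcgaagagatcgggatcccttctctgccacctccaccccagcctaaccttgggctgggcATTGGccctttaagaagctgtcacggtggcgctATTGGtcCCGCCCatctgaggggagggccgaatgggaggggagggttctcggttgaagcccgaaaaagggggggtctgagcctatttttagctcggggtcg
Hdac4 has 4 GC boxes and 2 CCAAT boxes in this window, and Hdac5 has 1 and 2. Of 32851 RefSeq promoters in the table, 32.7% hold a GC box and 33.8% a CCAAT box in the same window, neither of which was found in the windows of Hdac9. The E box CACGTG and the antioxidant response element core TGACNNNGC, found in 6.02% and 10.2% of all windows, were in neither of the printed ones. Promoters of Hdac2, Hdac6, Hdac7 and Hdac8 were also in the table, and those of Hdac1, Hdac3 and Hdac10 were not used here.

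BPA alone was measured against its own untreated arrays, and 0 of the 10 genes were called by limma at either time. At an unadjusted p below 0.05 there were 4 at 4 hr (Hdac4 higher, and Hdac5, Hdac6 and Hdac7 lower) and 2 at 24 hr (Hdac4 higher and Hdac1 lower), where 4.68% and 4.31% of all 15736 genes were called and 20.2% and 20.8% had an unadjusted p below 0.05. The error-weighted analysis of variance called 0 at 4 hr and Hdac4 at 24 hr (adjusted p = 0.04). Hdac4 levels were 1.28, 0.88 and 1.08 in untreated cells, 1.55, 1.61 and 1.53 at 4 hr, and 1.91, 1.78 and 1.67 at 24 hr. Its treated arrays were all above the controls, with changes of 0.48 (95% interval 0.08 to 0.89, adjusted p = 0.184) and 0.70 (0.30 to 1.11, adjusted p = 0.0709). Hdac5 levels were 3.61, 3.96 and 3.61 in untreated cells and 2.85, 3.01 and 3.23 at 4 hr, again without overlap, at 61.7% of control (log2 fold change -0.70, 95% interval -1.14 to -0.26, adjusted p = 0.086). For Hdac7 the levels were 1.90, 1.81 and 2.42 in untreated cells and 1.34, 1.05 and 1.38 at 4 hr, also without overlap (-0.79, 95% interval -1.34 to -0.23, adjusted p = 0.123). The median over the 10 genes at 4 hr was -0.53, beside -0.06 over all genes. The widest interval was that of Hdac2 at 4 hr (-0.88, 95% interval -2.09 to 0.33), whose arrays ranged from -2.46 to -0.60. Fitting all 24 arrays together called 6 of the 10 genes at 4 hr and 2 at 24 hr, where 25.7% and 24.9% of all genes were called. That fit took 1 residual SD per probe from both sets, whose own medians were 0.11 (first) and 0.32 (second). Its p-values therefore do not measure the spread of the second set's arrays alone. Between 4 and 24 hr of BPA limma again called 0 of the 10, with 2 at an unadjusted p below 0.05, where 4.3% of all genes were called and 21.3% had an unadjusted p below 0.05.

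The arrays of a set lay on 5 slides, and the groups were not spread evenly over them. The KBrO3 4 hr arrays shared a slide with 1 control, and within it the differences were -1.48 for Hdac9, -1.15 for Hdac10, -0.99 for Hdac7, -0.50 for Hdac5, 0.31 for Hdac1 and -0.05 for Hdac2. For co-exposure against KBrO3 alone at 24 hr, slide as a fixed block gave -0.39 for Hdac5, -0.53 for Hdac7, 0.27 for Hdac4 and 0.48 for Hdac8. All of these were called, as were Hdac1 (-0.21), Hdac2 (-0.24) and Hdac6 (0.15). The co-exposure arrays of both times and the KBrO3 24 hr arrays shared a slide with no control, so in these comparisons with control slide and treatment cannot be told apart except through a random block, for which the correlation within a slide was 0.63. Under it 7 genes were called at 24 hr after KBrO3 (1 higher), 8 at 4 hr of co-exposure (0 higher) and 6 at 24 hr of co-exposure (1 higher). The co-exposure 4 hr arrays also shared no slide with KBrO3 4 hr arrays, and under the random block Hdac1, Hdac5 and Hdac7 were lower and Hdac4 higher than with KBrO3 alone. Nor did the KBrO3 24 hr arrays share a slide with the KBrO3 4 hr arrays. The same limit thus holds for the changes from 4 to 24 hr after KBrO3 and for the difference between times of added BPA. Under the random block 9 and 3 genes were called in these.

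Hdac11, the class IV enzyme and the nearest relative outside the 10 genes, was read by 1 probe. Its levels were -2.68, -2.72 and -2.46 in untreated cells and -5.36, -5.35 and -5.15 at 4 hr after KBrO3, where 0 of 3 arrays had it well above background, so the fall was at least 5.92-fold (adjusted p = 1.46e-08). It was at 38.9% of control at 24 hr after KBrO3 and at 88.4% with co-exposure, the latter not called. With BPA alone it was called lower at 4 hr, at 42.5% of control (log2 fold change -1.23, SE 0.25, adjusted p = 0.0282). Among 14087 other genes, those whose levels followed Hdac10 most closely over the 15 arrays of the first set, which form 5 groups of 3, were 2510002D24Rik (Pearson r = 0.997), Atg16l2 (0.996) and Mthfsd (0.996). They were lower at 4 hr after KBrO3, at 25.0%, 22.8% and 30.2% of control, and at 24 hr they stood at 96.2%, 120% and 112%. Since they were picked for following Hdac10 on these same arrays, this shared course was part of the choice and is no separate result.

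Partner genes from lists of the complexes moved both ways at 4 hr after KBrO3, where 34.5% of all genes were higher and 38.1% lower. Of 9 CoREST genes, 6 were lower and 2 higher at 4 hr after KBrO3, with Zmym3, a zinc finger subunit, at 19.6% of control (log2 fold change -2.35, adjusted p = 3.55e-11) and the histone demethylase Kdm1a at 190%. Among 9 NuRD genes 2 were higher (Gatad2a at 274% and Mta2 at 240%, the latter named after its value was seen) and 1 lower (Mta3 at 51.8%), and among 15 Sin3 genes 7 were higher, Arid4b at 162% among them, and 6 lower, such as Sap30 at 61.0%. The medians of these 3 lists were -0.66, -0.06 and 0.08, and with quantile normalization 5 NuRD genes were lower in place of 1. By 24 hr after KBrO3, where 31.3% of all genes were higher and 38.1% lower, the Sin3 list had 9 higher and 1 lower (10 and 0 with median scaling, 9 and 0 with quantile normalization), the NuRD list 5 higher and 1 lower, and the CoREST list 2 higher and 4 lower. The medians were 0.17, 0.22 and -0.12, and with median scaling the CoREST list had 3 higher and 3 lower. Zmym3 was also called lower with BPA alone at 4 hr, at 48.2% of control (adjusted p = 0.0165).

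Among the partners of class IIa enzymes, to be read beside the same shares of all genes, 14-3-3 genes were 6 of 7 higher at 4 hr after KBrO3, with Ywhag at 266% (log2 fold change 1.41, adjusted p = 9.64e-10), and 4 higher and 2 lower at 24 hr, when Ywhaz was at 53.6%, while quantile normalization gave 4 higher and 1 lower at 4 hr. Of the 4 MEF2 genes, 2 were higher and 1 lower at 4 hr, with Mef2a at 198% and Mef2c at 41.3%, and all 4 were lower at 24 hr, with Mef2a at 62.7% and Mef2c at 55.6%. All 4 were also lower at 24 hr under median scaling and quantile normalization, whereas at 4 hr each of these left 1 higher and 1 lower. Of 10 kinase genes that act on these enzymes, 4 were higher and 3 lower at 4 hr (Sik3 at 179%, Camk2g at 40.7%) and 2 higher and 7 lower at 24 hr, of which median scaling left 3 lower, and quantile normalization gave 3 higher and 4 lower at 4 hr. The genes of Hdac6 partners and substrates were 6 higher and 1 lower of 7 at 4 hr, with the ubiquitin-binding autophagy receptor Sqstm1 at 453% (log2 fold change 2.18, adjusted p = 2.34e-10) and the tubulin acetyltransferase Atat1, which opposes Hdac6, at 39.5% (log2 fold change -1.34, adjusted p = 8.07e-09). At 24 hr after KBrO3, Sqstm1 was at 96.7% (adjusted p = 0.638) and Atat1 at 75.6%, and in co-exposed cells Sqstm1 was at 524% at 4 hr and 211% at 24 hr.

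**Figure D5:**
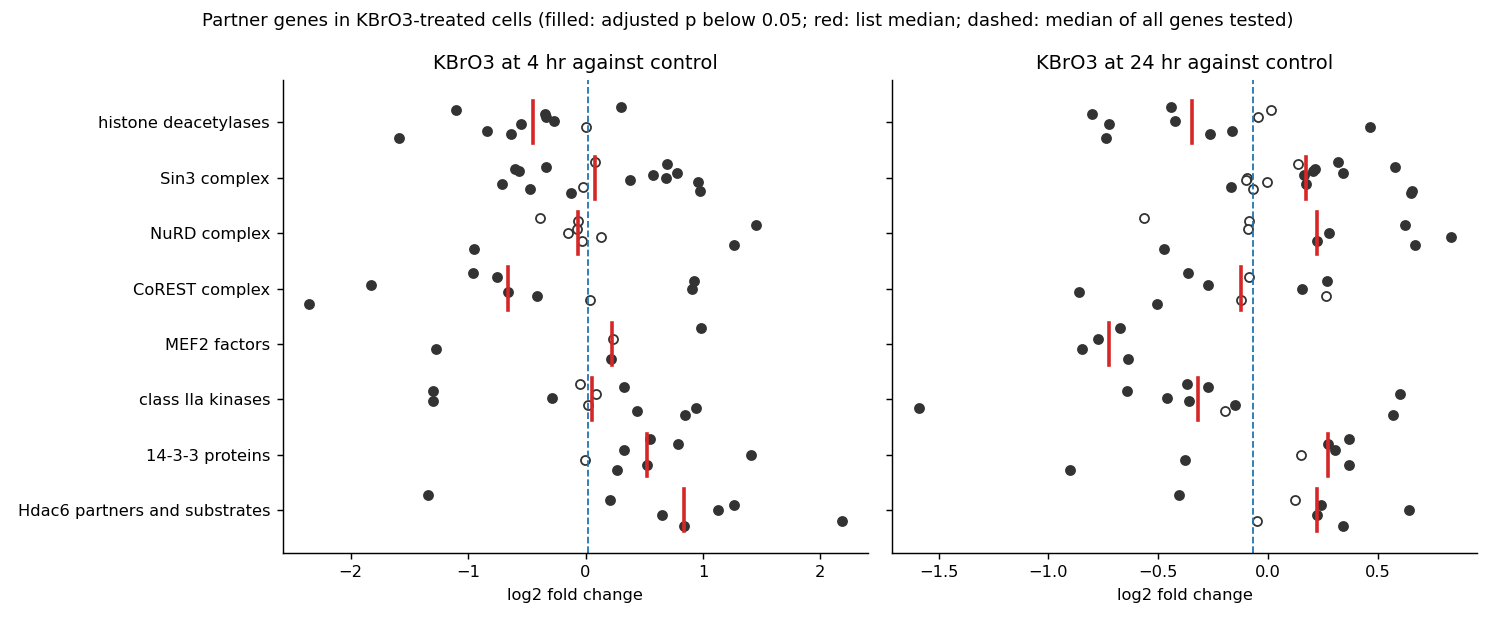
Log2 fold change of each tested gene of the histone deacetylases and of 7 partner lists at 4 hr (left) and 24 hr (right) after KBrO3, with list medians in red and the median of all genes tested as a dashed line; filled points were called at an adjusted p below 0.05. The histone deacetylase median lies left of the dashed line at both times, 14-3-3 genes lie mostly right of it at 4 hr, and all 4 MEF2 genes lie left of it at 24 hr.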

How the data were processed

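RNA from 24 cultures was read on 1-colour Agilent arrays. The deposited scanner files hold the authors' Feature Extraction intensities, already background-subtracted (processed signal). Per the file headers, version 9.5.3.1 and the mm7 annotation were used for the first set and version 12.0.0.7 and mm9 for the second, while the submitters' processing notes name version 12.0. Here the log2 of each intensity minus the array's 75th percentile was used, control spots and outlier flags left out and spots of 1 probe averaged. Each set was fitted alone with limma 3.58.1 (lmFit, eBayes; two-sided; 95% intervals), over the 27310 and 31809 probes that all arrays of some group measured well above background, with Benjamini-Hochberg adjustment over all of them; scripts were tested on simulated data. The named genes were the 10 members with all probes, Hdac11, Xrcc6, the called partner genes with the largest rise and fall in each list, and the 3 genes most like the member with the largest F. The members and lists were chosen with earlier results of these data known. Alternatives covered scaling, background, filters, weights, slide, replicate block and left-out arrays. The number of arrays limits the precision. The replicates are called biological in the study's methods, from 1 line, so p-values measure the spread between its cultures. The second set holds the median raw signal where the first holds the mean, and normexp used each. Another partner list is not reported here.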

Additional observations from a re-analysis of the deposited data

Results flagged for a closer look

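The change in level that went with BPA added to KBrO3 (co-exposure over KBrO3 alone) was higher at 24 hr than at 4 hr for 4 of the 10 genes, by limma's test of the difference between the times, where 31.4% of all 14097 genes tested were higher and 57.4% differed either way. Hdac8 had the widest difference, 0.79 (SE 0.15, adjusted p = 0.000993), from -0.25 at 4 hr to 0.54 at 24 hr by its brighter probe, and its other probe gave 0.10 (adjusted p = 0.46). For Hdac1 the difference was 0.34 (SE 0.08, adjusted p = 0.00413), as the reduction narrowed from -0.56 to -0.22. For Hdac6 it was 0.29 (SE 0.08, adjusted p = 0.0114), from -0.14 to 0.15, neither of which was called alone. For Hdac5 it was 0.21 (SE 0.07, adjusted p = 0.019), from -0.63 to -0.42. With quantile normalization the differences of Hdac1, Hdac5 and Hdac6 were no longer called (adjusted p = 0.13, 0.52 and 0.056), with the slide as a random block that of Hdac6 was not (0.25, adjusted p = 0.055), and scaling to array medians moved all genes by 0.31 in this test and the share of called genes that were higher from 54.6% to 81.1%. The second Hdac7 probe also differed between the times, by 0.52 (adjusted p = 0.0061), and the first did not pass (0.07, adjusted p = 0.51). The KBrO3 4 hr arrays shared no slide with the other groups of this test. Slide therefore cannot be told apart from time here except through the random block, under which 3 genes were called.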

How the results depend on the processing

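The 66 calls on single genes were recomputed under each alternative. The series value table and the filter to probes above background on every array kept all 66. The error-weighted analysis of variance kept 65, bounded normexp 64, the slide as a random block 58, quantile normalization 57 and median scaling 54. Fewest were kept with all 24 arrays in 1 fit (43), with normexp without the bound (38) and by the Bonferroni rule with a fold beyond 1.5 (21). Values that changed sign were, with quantile normalization, Hdac5 at 24 against 4 hr after KBrO3 (0.12); with median scaling, Hdac4 at 4 hr (-0.036) and 24 hr (0.18) of co-exposure and, at 24 against 4 hr of co-exposure, Hdac1 (0.054) and Hdac4 (0.22); and with normexp, Hdac7 at 24 hr after KBrO3 (0.10) and Hdac4 at 24 hr of co-exposure (0.059).

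Counts of called genes moved by over 1.5 times as follows. Quantile normalization gave 1 for BPA at 4 hr and 1 for the difference between times of added BPA, and median scaling gave 7 for added BPA at 4 hr and 7 for that difference. Normexp gave 4 for KBrO3 and 5 for co-exposure at 24 hr, 2 for added BPA at 24 hr, 5 for KBrO3 at 24 against 4 hr and 1 for the difference between times; 3 arrays held spots with signal far below background (lowest difference -65244), and a version bounded below, chosen after seeing the data, moved only BPA at 24 hr (1). All 24 arrays in 1 fit gave 5 for KBrO3 and 5 for co-exposure at 24 hr, 6 and 2 for BPA at 4 and 24 hr, 4 for BPA at 24 against 4 hr, 3 for added BPA at 24 hr, 5 for KBrO3 at 24 against 4 hr and 0 for the difference between times. The error-weighted analysis of variance gave 1 for BPA at 24 hr. The rule of Bonferroni p below 0.01 and fold beyond 1.5 gave 3 and 1 for KBrO3 at 4 and 24 hr, 4 and 5 for co-exposure, 1 and 0 for added BPA, 3 and 4 for 24 against 4 hr after KBrO3 and co-exposure, and 0 for the difference between times. Apart from this rule's construction the causes were not tested.

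Leaving out 1 array gave 8 to 9 calls for KBrO3 at 4 hr and 6 to 8 at 24 hr, 7 to 10 and 7 to 9 for co-exposure, 4 to 5 and 5 to 6 for added BPA, 10 to 10 and 9 to 9 for 24 against 4 hr after KBrO3 and co-exposure, 4 to 6 for the difference between times, and 0 to 0 for each BPA comparison. Same-numbered arrays did not deviate together on average (mean correlation -0.03 and 0.0020 in the first and second set). Single pairs ranged from -0.21 to 0.11 and from -0.38 to 0.65, so a mean cannot decide whether the numbers pair the arrays. With the replicate number as a block 62 of 66 calls were kept, and the count for KBrO3 at 24 hr was 6. Calls lost were Hdac7 and Hdac8 at 24 hr after KBrO3, and Hdac4 at 4 hr and Hdac8 at 24 hr of co-exposure. The slide as a fixed block was run only where the groups compared shared a slide or were linked by another group that shared slides with both. In the second set the median residual SD of 0.32 limited which changes could be called.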
